A study of Mus musculus with 4 samples.

Results

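The promoters of genes that make only non-coding RNA were examined in the accessible chromatin of mouse large peritoneal macrophages (LPMs), the resident macrophages of the peritoneal cavity. Overlapping ATAC-seq peaks (1 bp or more) of the 4 libraries were joined into regions, and a region was kept when at least 2 libraries had a peak in it. A kept region was counted as a promoter of a non-coding RNA gene when its midpoint lay from 1000 bp upstream to 200 bp downstream of the annotated start of a curated RefSeq non-coding transcript, when the gene had no curated coding transcript, and when the midpoint lay in no such window of a coding transcript. This gave 604 regions, 1.17% of the 51742 regions kept. A further 537 regions lay in the windows of both a coding and a non-coding gene and were left out, as were 144 that were called in 1 library.

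All 4 libraries came from 9-week-old C57BL/6 mice, 40000 sorted LPMs per library, and all carried the same library batch number. Both groups carried floxed alleles of Rxra and Rxrb, which encode the retinoid X receptors RXRα and RXRβ. The RXRabfl/fl group (2 libraries, replicates 1 and 3) had no Cre recombinase, and the LysMCre+RXRabfl/fl group (2 libraries, replicates 1 and 2) carried Cre under the lysozyme M promoter, which is active across myeloid cells and not in LPMs alone. The comparison asked how accessibility differed when both receptors were deleted in these cells. The labels do not say whether each library came from a separate mouse, so p-values measure the spread between these libraries.

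The libraries differed in the number of peaks, from 16097 in RXRabfl/fl replicate 3 to 65421 in LysMCre+RXRabfl/fl replicate 1, with 38048 in RXRabfl/fl replicate 1 and 55581 in LysMCre+RXRabfl/fl replicate 2. RXRabfl/fl replicate 3 stood apart. Over the 240 non-coding RNA gene promoters called in all 4 libraries, the median background at the summit was 1.85 reads there. It was 4.48 to 6.03 in the other libraries. Of 7 LPM marker genes, 5 or 6 had a promoter region in each library, Gata6 included. Vsig4 was not among the autosomal genes of the annotation used. No promoter region was called at any of 4 B-cell, 3 T-cell or 2 mast-cell markers. Of 3 neutrophil markers, S100a8 had a region in every library but RXRabfl/fl replicate 3, with fold enrichments of 13.98, 16.6 and 16.1, and Ly6g and Mpo had none. Of 5 markers of small peritoneal or monocyte-derived macrophages, 1 had a region in each RXRabfl/fl library, and 4 and 3 had one in LysMCre+RXRabfl/fl replicates 1 and 2. Their summed fold enrichment, an uncalled region counting as 0, was 15.9 and 6.37 in the RXRabfl/fl libraries. It was 35.8 and 22.1 in the LysMCre+RXRabfl/fl libraries, with no region at Ccr2 in any library. For the LPM markers the sums were 58.8 and 33.2 in RXRabfl/fl and 52.6 and 48.3 in LysMCre+RXRabfl/fl libraries. Irf4 had 15.9 and 6.37 in RXRabfl/fl and 18.1 and 12.8 in LysMCre+RXRabfl/fl libraries. Retnla, Mrc1 and Cd226 had weaker peaks of 3.65 to 7.31, in LysMCre+RXRabfl/fl libraries only. The part of small peritoneal or monocyte-derived macrophages, or of depth, in the differences given here was not tested. Fewer cells with an open site and a less open site in each cell cannot be told apart in such bulk samples.

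Non-coding RNA genes make several kinds of product. Host genes of small nucleolar RNAs (snoRNAs) carry in their introns the guides that direct chemical modification of ribosomal RNA, and their spliced transcripts are made by RNA polymerase II from strong housekeeping promoters. MicroRNAs are cut from longer precursors and silence messenger RNAs that pair with their seed, bases 2 to 8. Long non-coding RNAs include nuclear RNAs such as Neat1 and Malat1, RNAs of imprinted loci such as Airn and Kcnq1ot1, and antisense RNAs. A further set of short genes, among them Rn7sk and Rny1, is transcribed by RNA polymerase III, or by RNA polymerase II from snRNA-type promoters.

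Sequences were available in the RefSeq promoter table for 390 of the 604 regions, all of them long non-coding RNA entries, and each entry holds 250 bases before and 50 bases after the annotated start (GRCm38.p6, whose coordinates are those of mm10). Of the promoters shown here, Gm13421 had the highest mean fold enrichment. By read pileup Snhg8 and B330016D10Rik were lower in LysMCre+RXRabfl/fl LPMs, and A930016O22Rik was higher. The region of Ptgs2os2 lay 64978 bp from the start of the prostaglandin synthase gene Ptgs2. Mexis is named for its response to liver X receptors, partners of RXR. Capitals mark, on either strand, the PU.1/ETS motif in Gm13421, the GC box in B330016D10Rik and A930016O22Rik, the PU.1/ETS and C/EBP motifs in Ptgs2os2 and the nuclear receptor motif AGGTCA in Mexis. In Snhg8 they mark, on the transcribed strand, a TATA box and the pyrimidine run that opens the transcript.
Gm13421, chr2:27540176-27540475, + strand: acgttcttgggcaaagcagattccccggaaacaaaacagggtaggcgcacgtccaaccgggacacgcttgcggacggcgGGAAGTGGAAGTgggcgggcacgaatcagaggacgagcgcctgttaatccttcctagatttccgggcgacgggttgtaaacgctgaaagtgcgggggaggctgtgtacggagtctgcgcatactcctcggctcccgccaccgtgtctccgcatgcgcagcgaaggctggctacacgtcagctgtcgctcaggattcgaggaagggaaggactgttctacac
Snhg8, chr3:123508287-123508586, - strand: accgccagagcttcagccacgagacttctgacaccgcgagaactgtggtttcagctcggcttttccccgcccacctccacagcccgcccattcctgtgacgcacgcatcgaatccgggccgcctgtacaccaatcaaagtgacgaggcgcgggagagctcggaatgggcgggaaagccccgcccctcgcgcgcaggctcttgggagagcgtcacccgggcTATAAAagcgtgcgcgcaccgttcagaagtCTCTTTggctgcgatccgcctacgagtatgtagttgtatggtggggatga
B330016D10Rik, chr4:141545912-141546211, + strand: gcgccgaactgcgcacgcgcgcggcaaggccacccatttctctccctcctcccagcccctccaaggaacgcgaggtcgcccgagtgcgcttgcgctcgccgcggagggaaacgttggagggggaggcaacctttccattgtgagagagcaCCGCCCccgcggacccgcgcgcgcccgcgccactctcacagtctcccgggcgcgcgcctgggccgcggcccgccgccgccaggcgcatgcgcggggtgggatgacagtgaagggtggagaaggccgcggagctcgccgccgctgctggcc
A930016O22Rik, chr7:19421368-19421667, - strand: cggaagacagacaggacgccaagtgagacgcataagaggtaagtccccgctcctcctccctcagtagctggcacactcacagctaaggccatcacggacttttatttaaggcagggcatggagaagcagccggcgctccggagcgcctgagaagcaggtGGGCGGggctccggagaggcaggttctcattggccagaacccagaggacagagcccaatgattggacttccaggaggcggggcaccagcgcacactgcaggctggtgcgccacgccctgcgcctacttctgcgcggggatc
Ptgs2os2, chr1:150164899-150165198, - strand: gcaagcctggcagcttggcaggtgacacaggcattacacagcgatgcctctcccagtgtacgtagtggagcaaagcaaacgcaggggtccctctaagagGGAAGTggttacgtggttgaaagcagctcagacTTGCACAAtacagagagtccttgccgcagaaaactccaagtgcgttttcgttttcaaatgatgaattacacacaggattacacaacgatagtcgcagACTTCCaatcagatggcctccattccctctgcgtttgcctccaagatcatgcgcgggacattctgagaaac
Mexis, chr4:53270183-53270482, - strand: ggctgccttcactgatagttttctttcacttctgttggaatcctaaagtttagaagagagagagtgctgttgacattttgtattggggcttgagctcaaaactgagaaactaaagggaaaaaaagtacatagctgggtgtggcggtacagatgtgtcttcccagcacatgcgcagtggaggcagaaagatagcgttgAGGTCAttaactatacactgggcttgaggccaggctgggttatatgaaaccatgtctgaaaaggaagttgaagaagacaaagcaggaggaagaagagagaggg

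Position 1 of the transcript follows the first 250 bases. The TATA box of Snhg8 began 30 bases upstream of the annotated start, and its transcript opened with the run of 6 pyrimidines known as a 5′ TOP motif, which marks many genes of the translation machinery. Ptgs2os2 had PU.1/ETS matches 21 and 151 bases upstream and a C/EBP match 118 bases upstream. The GC boxes lay 100 bases upstream in B330016D10Rik and 91 bases upstream in A930016O22Rik, and the nuclear receptor motif lay 53 bases upstream in Mexis. In Gm13421 the pair of adjoining PU.1/ETS matches began 171 and 165 bases upstream. A match of letters is a description and does not show that a factor was bound.

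Among microRNA genes, 72 lay in the windows, and 70 had an entry in the RefSeq table. The mature sequences below belong to the clusters and genes described later, with the seed in capitals. For microRNAs the annotated start is the start of the hairpin, which in many genes lies far from the start of the primary transcript.
miR-132-3p, chr11:75173723-75173744, + strand: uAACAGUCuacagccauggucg
miR-212-3p, chr11:75173443-75173464, + strand: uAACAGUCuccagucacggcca
miR-23a-3p, chr8:84208563-84208583, + strand: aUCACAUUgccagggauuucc
miR-27a-3p, chr8:84208727-84208747, + strand: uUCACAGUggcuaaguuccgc
miR-24-3p, chr8:84208875-84208896, + strand: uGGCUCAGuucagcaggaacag
miR-146a-5p, chr11:43374435-43374456, - strand: uGAGAACUgaauuccauggguu
miR-142a-3p, chr11:87756903-87756925, + strand: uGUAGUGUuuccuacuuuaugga
let-7i-5p, chr10:122985698-122985719, - strand: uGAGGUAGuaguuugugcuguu
miR-210-3p, chr7:141221407-141221428, - strand: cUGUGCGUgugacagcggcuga
miR-713, chr13:62760807-62760825, + strand: uGCACUGAaggcacacagc

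The 3p forms of miR-132 and miR-212 shared the seed AACAGUC, and their hairpins shared a single region. The other seeds shared between member genes were those of miR-9-5p and miR-9-3p, which Mir9-1 and Mir9-2 both encode.

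The 604 regions covered 605 non-coding RNA genes, since 25 genes had 2 regions and 23 regions lay in the windows of at least 2 non-coding genes. These were 12.2% of the 4942 curated autosomal genes of this kind, against 53.6% of 20021 coding genes with a promoter region. The share was 14.6% for long non-coding RNA genes (470 of 3220), 6.34% for microRNA genes (72 of 1136), 10.7% for snoRNA genes (13 of 122), 38.9% for snRNA genes (7 of 18) and 10.2% for transcribed pseudogenes (39 of 381). By name, 429 regions belonged to genes known only by a clone or predicted-gene name, 70 to microRNA genes or hosts, 25 to antisense or opposite-strand RNAs, 16 to small RNAs, 13 to snoRNA hosts and 51 to other named genes. Outside coding genes lay 391 regions, 146 lay in an intron of a coding gene and 67 over an exon. A coding start lay within 1500 bp of 124 regions, and the nearest was over 10000 bp away for 367.

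The strongest summit lay upstream of the annotated start in 477 regions and within 100 bp of it, on either side, in 271. Its median position was 79 bp upstream for the 481 long non-coding RNA regions and 55 bp upstream for the 41 pseudogene regions, whereas for the 67 microRNA regions it was 234 bp upstream. The share within 100 bp was 46.6%, 61.0% and 26.9%, respectively.

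**Figure D1:**
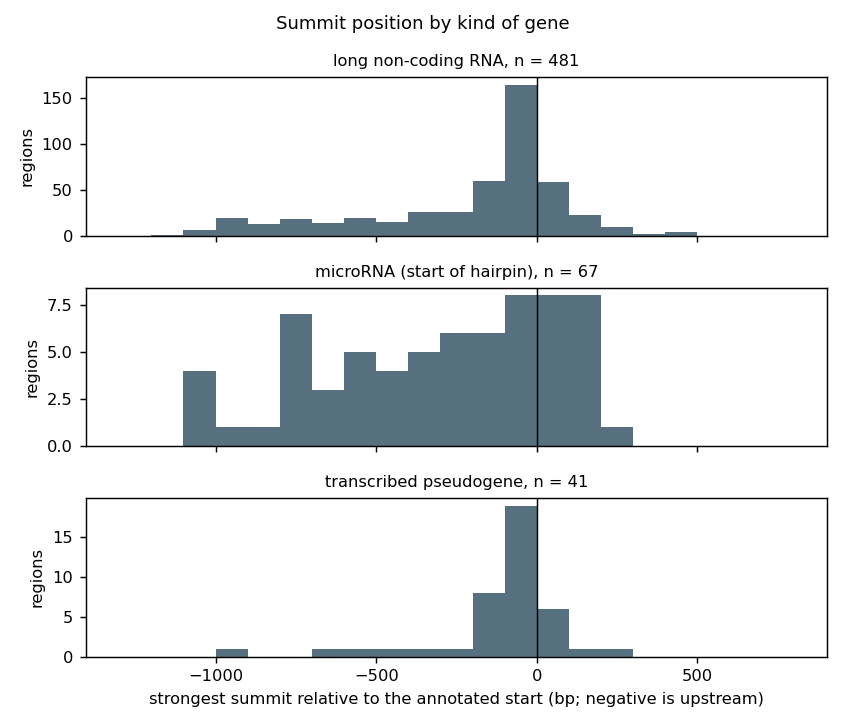
Number of regions (y axis) by distance in bp from the annotated start to the strongest summit (x axis, 100-bp bins, negative upstream; values past an end are drawn in the end bin), for 481 long non-coding RNA, 67 microRNA and 41 transcribed pseudogene regions. The first and last groups peak just upstream of the start, with medians of 79 and 55 bp, and the microRNA regions spread farther upstream with a median of 234 bp.

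Peaks were called at 479 of the 604 regions in RXRabfl/fl replicate 1 (79.3%), at 240 in RXRabfl/fl replicate 3 (39.7%), at 603 in LysMCre+RXRabfl/fl replicate 1 and at 588 in LysMCre+RXRabfl/fl replicate 2. All 4 libraries shared 240 regions (39.7%). Another 222 (36.8%) were missing in RXRabfl/fl replicate 3 only. A further 125 (20.7%) were called in both LysMCre+RXRabfl/fl libraries and in neither RXRabfl/fl library, and none was called in the RXRabfl/fl libraries alone. Of the 10323 promoters of coding genes, 62.6% were called in all 4 libraries and 9.62% in the LysMCre+RXRabfl/fl libraries only. Over all 51742 regions these shares were 29.4% and 31.2%. The promoters of non-coding RNA genes thus lay between coding promoters and the whole in both. Of all regions, 34.9% were missing in RXRabfl/fl replicate 3 only and 32 (0.0618%) were called in the RXRabfl/fl libraries alone, near the shares of the 604. When each library was cut to the same number of peaks, 269 regions remained, with 61.3% in all 4 libraries and 8.18% in the LysMCre+RXRabfl/fl libraries only. With that cut the shares of coding promoters and of all regions were not computed. These 2 values therefore cannot be set against the shares above.

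**Figure D2:**
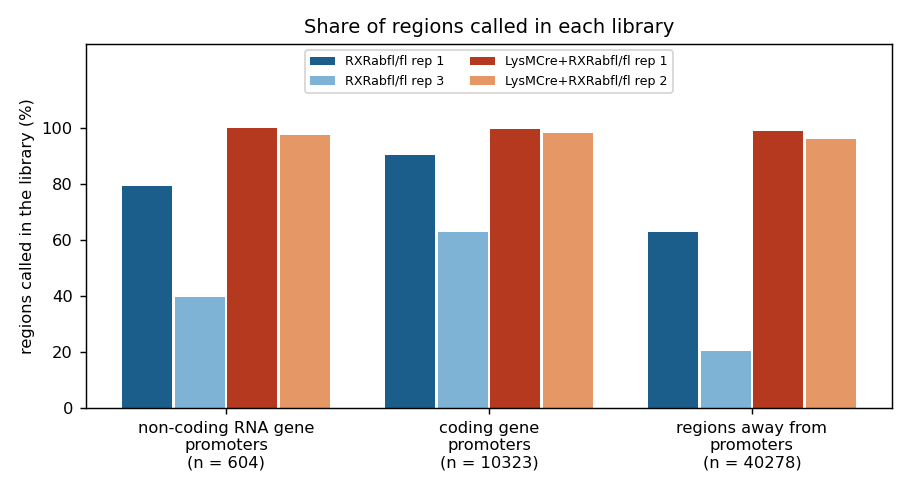
Share of regions with a peak (y axis, %) in each of the 4 libraries for 604 non-coding RNA gene promoters, 10323 coding gene promoters and 40278 regions away from promoters (bars, coloured by library). In RXRabfl/fl replicate 3 the shares are 39.7%, 62.8% and 20.4%, and in both LysMCre+RXRabfl/fl libraries every share is above 95%.

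Regions called in fewer libraries were also weaker where they were called. In LysMCre+RXRabfl/fl replicate 1, the median fold enrichment of the summit over its local background was 14.4 for the 240 regions called in all 4 libraries, 9.58 for the 222 missing in RXRabfl/fl replicate 3 only and 6.02 for the 125 called in the LysMCre+RXRabfl/fl libraries only. In LysMCre+RXRabfl/fl replicate 2 these medians were 11.8, 7.52 and 5.26. The regions called with one genotype only thus sat in the lower part of those libraries, at a median percentile of 31.4 and 23.5 among all their peaks.

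The strongest regions called in the LysMCre+RXRabfl/fl libraries only belonged to 3 genes with predicted-gene names and to a microRNA. The region of Gm11827 had a fold enrichment of 15.3 and 15.1 in replicates 1 and 2. That of Gm28857, within an exon of AA986860, had 19.4 and 11.3, and that of Gm46609 had 16.5 and 11.7. At Mir7670, in an exon of Ubn2, the values were 20.1 and 8.66. All 4 rested on low pileups of 17 to 74 reads, and an uncalled region has no value in these files, so no fold change was computed.

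The 240 regions called in all 4 libraries were tested with limma on the log2 scale, after subtracting from each library its median over all 15199 such regions. None passed an adjusted p of 0.05 with a log2 difference over 1, against 0.0855% of all regions tested (13 of 15199). At an unadjusted p under 0.05, 42 of the 240 (17.5%) were counted, against 22% of all regions. The genotypes did not overlap at 119 (49.6%), against 55.2% of all regions. RXRabfl/fl was higher at 75 of these (31.3%, against 32.9%) and LysMCre+RXRabfl/fl at 44 (18.3%, against 22.3%). These shares were near or below those of all regions.

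The median log2 difference, LysMCre+RXRabfl/fl minus RXRabfl/fl, was -0.09 over the 240 regions and -0.09 over all regions, against -0.18 for coding promoters. It ranged from -1.23 to 1.12, with a median SE of 0.22, and lay below 0 in 148 of 240. The sign of this median depended on the centring: with each library centred on its coding promoters it was 0.05, as the whole set moved by 0.13. With that centring 2 of the 240 passed the threshold (1.15% of all regions did), and with a variance trend also 2 (0.901%), Gm14403 and B330016D10Rik in both cases. Without RXRabfl/fl replicate 1, 11 of 240 passed (4.58%, against 5.18% of all regions), and without RXRabfl/fl replicate 3, 15 of 462 (3.25%, against 3.55%). When regions with missing values were kept, 34 of 479 passed (8.11% of all regions did), 33 of them higher in LysMCre+RXRabfl/fl LPMs, and in that fit missing values were dropped rather than imputed. For 32 of these 34, only 1 RXRabfl/fl library had a value, so that genotype was represented by a lone sample assumed to vary like the others.

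The pileup at the summit, the number of extended reads stacked there before division by the background, gave a different picture. By this measure 11 of the 240 passed the same threshold (4.58%), against 7.48% of all regions. Of these, 7 were lower in LysMCre+RXRabfl/fl LPMs (2.92%, against 4.98%) and 4 were higher (1.67%, against 2.49%). For 76 of the 240 the difference in fold enrichment and that in pileup had opposite signs. By construction, a higher local background gives a lower fold enrichment at the same pileup.

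**Figure D3:**
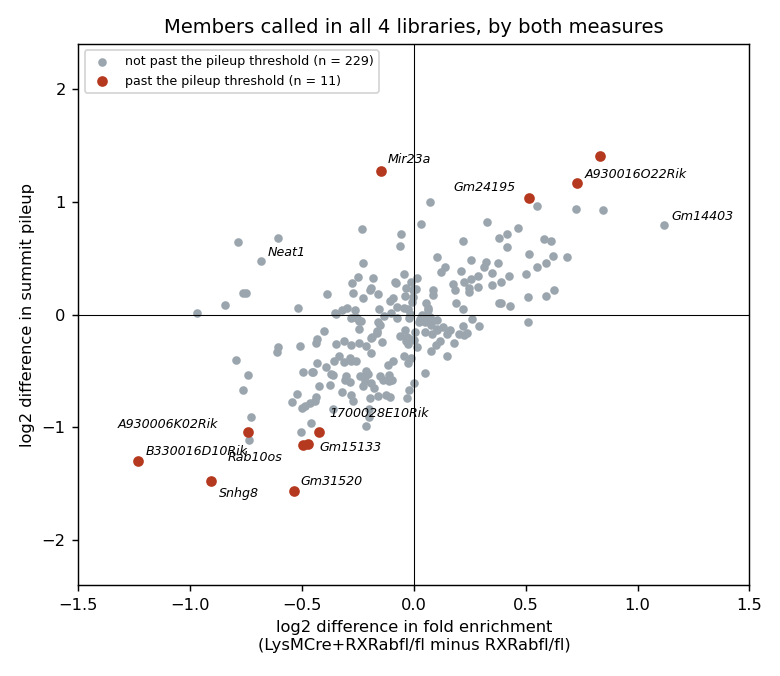
Log2 difference between genotypes in fold enrichment (x axis) against that in summit pileup (y axis), LysMCre+RXRabfl/fl minus RXRabfl/fl, for the 240 regions called in all 4 libraries; each point is a region, red where the pileup test passed adjusted p 0.05 and a log2 difference over 1. Of the 11 red points, 7 are low and 4 are high (1 of these is not labelled), and Mir23a is the only red point whose differences have opposite signs.

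Of the 6 name classes, the snoRNA hosts had the highest share of regions called in all 4 libraries. Of 20 such genes, 13 had a region counted here, 6 (Gas5, Zfas1, Snhg1, Snhg9, Snhg10 and Snhg18) had a region that also lay in the window of a coding gene, and Snhg14 had none. Of the 13, 9 were called in all 4 libraries (69.2%, against 39.7% of all 604), and 4, those of Snhg11, Snhg12, Snhg17 and Snhg20, were missing in RXRabfl/fl replicate 3 only. None passed the threshold on fold enrichment, and their median log2 difference was -0.11. Dancr, whose RNA is known for restraining cell differentiation, ranked among the strongest of all, with fold enrichments of 21.9 and 16.2 in RXRabfl/fl and 23.0 and 18.3 in LysMCre+RXRabfl/fl libraries. Its groups overlapped after centring (log2 difference -0.24 ± 0.23 (SE), adjusted p = 0.545).

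Snhg8 was the host gene that differed most. Its region, chr3:123508109-123509058, had fold enrichments of 19.97 and 12.6 in RXRabfl/fl replicates 1 and 3 and 13.02 and 9.19 in LysMCre+RXRabfl/fl replicates 1 and 2. After centring both RXRabfl/fl values lay above both others (-0.91 ± 0.21, adjusted p = 0.0658). The pileup was 247, 49, 106 and 49 reads in the same order, and the test on it passed (-1.48 ± 0.25, adjusted p = 0.0198). The region also covers the start of the snoRNA gene Snora24, and the 2 cannot be told apart.

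Snhg4 had the largest difference of a host gene in the other direction and did not pass. Its fold enrichments were 18.4 and 6.79 in RXRabfl/fl and 22.4 and 20 in LysMCre+RXRabfl/fl libraries (0.55 ± 0.23, adjusted p = 0.184). Snhg3, Snhg6 and Snhg7 also did not overlap with LysMCre+RXRabfl/fl higher, and Snhg8, Snhg15 and Snhg16 with RXRabfl/fl higher, so 4 of the 9 did not overlap with LysMCre+RXRabfl/fl higher and 3 with RXRabfl/fl higher, against 22.3% and 32.9% of all regions.

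**Figure D4:**
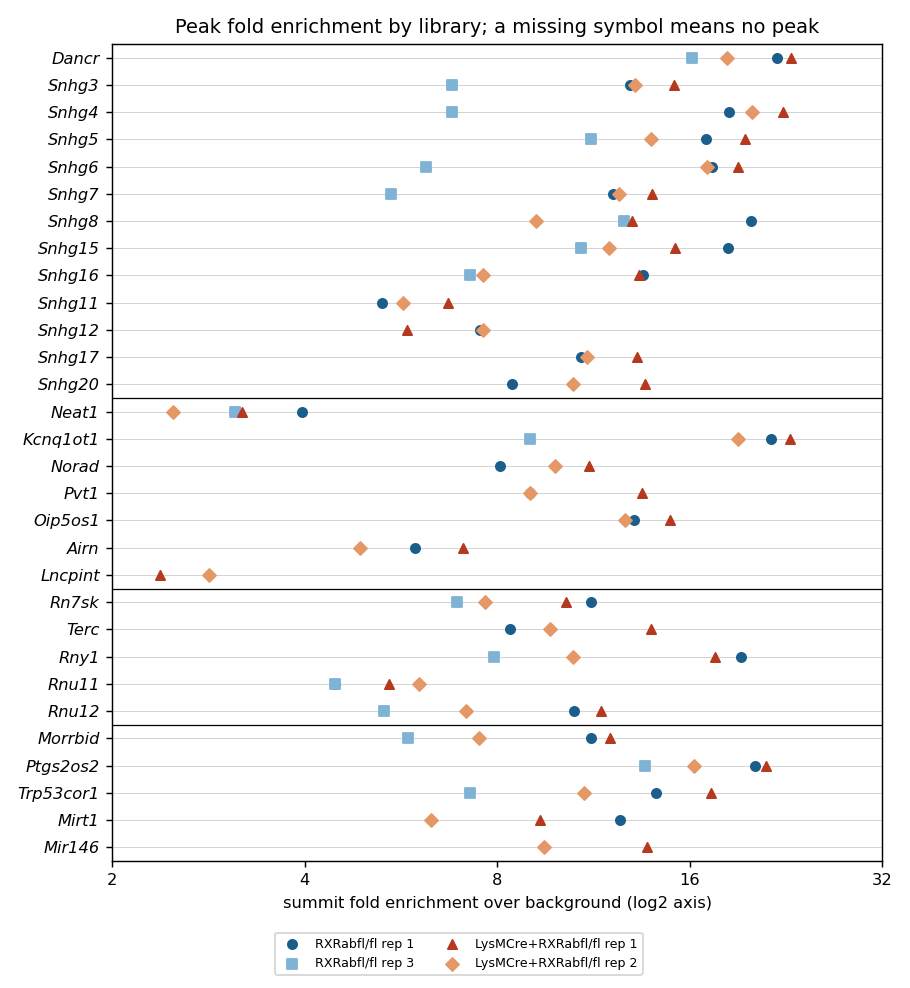
Fold enrichment of the summit over background (x axis, log2 scale) in each library for 30 genes of the fixed lists. From the top, 4 blocks hold snoRNA hosts, nuclear and imprinted RNAs, polymerase III and small nuclear RNAs with Terc, and genes of the list drawn up for immune RNAs. Each symbol is a library, and a missing symbol means that no peak was called. RXRabfl/fl replicate 3 (pale squares) lies at or near the left in most rows or is missing, while in Snhg8 and Neat1 it lies among the LysMCre+RXRabfl/fl symbols, and Neat1 and Lncpint lie far left.

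Of 14 nuclear and imprinted long RNAs, 9 had a region counted here. Kcnq1ot1, the antisense RNA of an imprinted cluster, lies in an intron of Kcnq1 and had fold enrichments of 21.5 and 9.01 in RXRabfl/fl and 23.0 and 19.1 in LysMCre+RXRabfl/fl libraries (0.22 ± 0.21, adjusted p = 0.559). Airn, the antisense RNA in an intron of Igf2r, was weak, at 5.95, 7.07 and 4.89 in the 3 libraries that called it. Pvt1, near Myc, had 9.01, 13.5 and 9.00, Oip5os1 had 13.1, 14.9 and 12.7, and Norad, which keeps Pumilio proteins from their targets, had 8.08, 11.2 and 9.85; none of these was called in RXRabfl/fl replicate 3. Peg13, an imprinted RNA in an intron of Trappc9, had 2 regions, both without a peak in RXRabfl/fl replicate 3. Lncpint, a long RNA induced by p53, was called in the LysMCre+RXRabfl/fl libraries only, at 2.37 and 2.83. Tug1 had a region that also lay in a coding window, Meg3, Rian and H19, imprinted RNAs, had none, and Nespas was not in the annotation used.

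Neat1, the scaffold of paraspeckles, shows how the measures part. Its region at chr19:5845081-5846059 had among the lowest fold enrichments, 3.95 and 3.11 in RXRabfl/fl and 3.19 and 2.49 in LysMCre+RXRabfl/fl libraries, yet the pileup was 275, 48, 386 and 218 reads. The background at its summit was 68.8, 14.8, 120.4 and 87.1 reads, against medians of 6.03, 1.85, 5.68 and 4.48 over the 240 regions. The fold enrichment difference was -0.68 ± 0.24 (adjusted p = 0.127) and the pileup difference 0.47 ± 0.23 (adjusted p = 0.183), and neither passed. Malat1, the neighbouring nuclear-speckle RNA, gave the same split at its stronger region, with fold enrichments of 8.60, 5.53, 6.56 and 4.28 (-0.75 ± 0.22, adjusted p = 0.0928) and pileups of 105, 22, 159 and 63 reads (0.19 ± 0.28, adjusted p = 0.656).

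The third list held 22 genes for RNA polymerase III transcripts, small nuclear RNAs, U3 RNAs and the telomerase RNA Terc. Of these, 10 had a region counted here, of which 6 were called in all 4 libraries. A further 3 had a region that also lay in a coding window, 3 had a region in 1 library only and 6 had none. Rn7sk, which holds the elongation factor P-TEFb inactive, had fold enrichments of 11.2 and 6.92 in RXRabfl/fl and 10.3 and 7.66 in LysMCre+RXRabfl/fl libraries (-0.36 ± 0.21, adjusted p = 0.328). Rny1, a Y RNA bound by the Ro60 protein, had 19.2, 7.89, 17.5 and 10.5 (-0.23 ± 0.23, adjusted p = 0.572). The regions of both minor spliceosome RNAs, Rnu11 and Rnu12, and of the vault RNA Vaultrc5 were called in every library. That of Terc, the template RNA of telomerase, was missing in RXRabfl/fl replicate 3. The Rnu12 region had its summit at -623 bp from the Rnu12 start and its midpoint 228 bp from the start of the coding gene Poldip3. The promoters of Rnu12 and Poldip3 cannot be told apart there. No gene of this list passed by either measure. The U3 genes Rnu3b1 to Rnu3b4 lie as near-identical copies in an intron of Tex14, so reads could be split between them and their values are uncertain.

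The microRNA regions were split between the measures. The region upstream of the Mir23a, Mir27a and Mir24-2 cluster (chr8:84207792-84208176), which makes microRNAs abundant in myeloid cells, had fold enrichments of 5.35 and 4.50 in RXRabfl/fl and 6.90 and 4.73 in LysMCre+RXRabfl/fl libraries, and the groups overlapped (-0.15 ± 0.25, adjusted p = 0.753). Its pileup was 163, 36, 468 and 244 reads and passed the test (1.28 ± 0.23, adjusted p = 0.0206). Its local background also differed, at 29.7, 7.22, 67.0 and 50.8 reads, so the reads around the summit moved together with it.

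Mir713 had fold enrichments of 12.7 and 4.85 in RXRabfl/fl and 20.7 and 16.1 in LysMCre+RXRabfl/fl libraries (0.85 ± 0.22, adjusted p = 0.0784). The genotypes did not overlap, with LysMCre+RXRabfl/fl higher, as at 22.3% of all regions. Its pileup of 45, 9, 87 and 56 reads was also higher in LysMCre+RXRabfl/fl LPMs, with an adjusted p of 0.0317 by limma. The log2 difference in pileup, 0.93 ± 0.21, missed the size threshold.

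MicroRNAs known from immune cells differed in where they were called. Mir146, whose product restrains Toll-like receptor signalling, had a region in the LysMCre+RXRabfl/fl libraries only, with its summit at -703 bp from the start of the hairpin and fold enrichments of 13.7 and 9.48. Mir142, transcribed across blood cell types, was called at 3.81 in RXRabfl/fl replicate 1 and 4.19 in LysMCre+RXRabfl/fl replicate 1 and in no other library. The shared region of Mir132 and Mir212 had 6.06 and 4.28 in RXRabfl/fl and 3.92 and 3.66 in LysMCre+RXRabfl/fl libraries (-0.79 ± 0.23, adjusted p = 0.0902). Mirlet7i, of the let-7 family, had 10.3, 5.76, 12.1 and 7.50 (-0.06 ± 0.22, adjusted p = 0.890), and Mir210, induced by hypoxia, had 21.4, 11.9, 19.96 and 17.1 (-0.16 ± 0.21, adjusted p = 0.677). Over the 24 regions of microRNA genes called in all 4 libraries, hosts such as Dleu2 left out, the median log2 difference was -0.16 in fold enrichment and 0.28 in pileup. Over all regions tested these medians were -0.09 and -0.10. Mir132, Mir142, Mirlet7i and Mir210 were chosen after their values were seen.

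Dleu2, the host of the miR-15a and miR-16-1 genes, had fold enrichments of 7.88 and 7.17 in RXRabfl/fl and 6.25 and 4.66 in LysMCre+RXRabfl/fl libraries (-0.85 ± 0.26, adjusted p = 0.0999), while its pileup of 181, 40, 195 and 138 reads gave a difference of 0.08 ± 0.22 (adjusted p = 0.818). At Mir22hg, the host of miR-22, the region at the start had 12.9, 11.4, 9.78 and 10.7 (-0.61 ± 0.27, adjusted p = 0.204), and its pileups were among the highest, at 460, 101, 334 and 293 reads.

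The last fixed list was drawn up for immune long RNAs and microRNA genes, though not every gene on it is known mainly from immune cells. Of its 12 genes, 6 had a region counted here, and 4 of their 7 regions were called in all 4 libraries. Ptgs2os2, known as lincRNA-Cox2 and induced with Ptgs2 in activated macrophages, had 20.2 and 13.6 in RXRabfl/fl and 21.1 and 16.2 in LysMCre+RXRabfl/fl libraries (-0.21 ± 0.22, adjusted p = 0.584). Its pileup of 184, 45, 111 and 63 reads was lower in LysMCre+RXRabfl/fl LPMs with an adjusted p of 0.0317, but the log2 difference of -0.99 ± 0.23 missed the size threshold. Morrbid, which controls the life span of short-lived myeloid cells, had 11.2, 5.80, 12.0 and 7.48 (-0.13 ± 0.22, adjusted p = 0.740), with overlapping groups. Trp53cor1, 11914 bp from the start of Cdkn1a and induced by p53, had 14.2, 7.25, 17.3 and 10.9 (0.07 ± 0.21, adjusted p = 0.871). Its pileup of 91, 18, 193 and 112 reads was higher in LysMCre+RXRabfl/fl LPMs with an adjusted p of 0.0288, and its log2 difference of 0.996 ± 0.22 also missed the size threshold. Mirt1 was called at 12.4 in RXRabfl/fl replicate 1 and at 9.33 and 6.31 in the LysMCre+RXRabfl/fl libraries. Mir155hg, Mir17hg, Mirt2 and Lncenc1 had no region, and Mir142hg and Mir221 were not among the autosomal genes of the annotation used.

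Of the 25 antisense and opposite-strand RNA regions, 14 (56.0%) were called in all 4 libraries and 6 in the LysMCre+RXRabfl/fl libraries only. Their median log2 difference was -0.19 over the 14. Over all 51742 regions, 29.4% were called in all 4 libraries and 31.2% in the LysMCre+RXRabfl/fl libraries only. Over the 604 regions these shares were 39.7% and 20.7%. The median log2 difference was -0.09 over all regions tested and -0.09 over the 240. Of the 41 transcribed pseudogene regions, 19 (46.3%) were called in all 4 libraries and 4 in the LysMCre+RXRabfl/fl libraries only, with a median difference of -0.03. Mx1 and Mx2, interferon-induced genes that carry inactivating changes in C57BL/6 mice and have no curated coding transcript, fell in this group and were chosen after their values were seen. The stronger region of Mx2 had fold enrichments of 12.0 and 7.14 in RXRabfl/fl and 13.4 and 11.9 in LysMCre+RXRabfl/fl libraries, and the groups overlapped (0.08 ± 0.21, adjusted p = 0.842). Mx1 was called at 10.9 in RXRabfl/fl replicate 1 and at 12.6 and 14.0 in the LysMCre+RXRabfl/fl libraries. H2-K2, H2-Q5 and H2-T10 belong to the class I histocompatibility family of near-identical genes, and their values are uncertain for that reason.

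Mexis and Gata6os were read because of their neighbours and were chosen after their values were seen. Mexis, 110147 bp from the start of the cholesterol exporter Abca1, had fold enrichments of 12.1 and 5.56 in RXRabfl/fl and 17.0 and 15.4 in LysMCre+RXRabfl/fl libraries, without overlap (0.61 ± 0.21, adjusted p = 0.125). Gata6os, whose region lies 721 bp from the start of Gata6, the defining transcription factor of LPMs, had 9.64 and 4.74 in RXRabfl/fl and 4.85 and 5.66 in LysMCre+RXRabfl/fl libraries (-0.74 ± 0.23, adjusted p = 0.106). Neither passed by fold enrichment, and the pileup tests gave adjusted p of 0.108 and 0.0672.

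The largest differences in fold enrichment fell on genes with clone or predicted-gene names, for which no function is given here. B330016D10Rik (chr4:141545764-141546311, 7441 bp from the start of Spen) had fold enrichments of 16.1 and 12.9 in RXRabfl/fl and 8.45 and 7.44 in LysMCre+RXRabfl/fl libraries (-1.23 ± 0.24, adjusted p = 0.0562). Its pileup of 149, 45, 71 and 52 reads passed (-1.30 ± 0.25, adjusted p = 0.0240). The genotypes did not overlap by fold enrichment, and by pileup the promoter was lower in LysMCre+RXRabfl/fl LPMs. A second region of the gene, weaker, was called in the LysMCre+RXRabfl/fl libraries only. Gm27252, in an intron of Klf13, had 7.43, 5.87, 4.23 and 4.48 (-0.97 ± 0.25, adjusted p = 0.0759), but its pileup of 99, 22, 77 and 96 reads gave 0.02 ± 0.31.

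In the other direction, Gm14403 had 11.4 and 5.34 in RXRabfl/fl and 22.5 and 21.3 in LysMCre+RXRabfl/fl libraries (1.12 ± 0.21, adjusted p = 0.0562), with pileups of 33, 10, 61 and 54 reads (0.79 ± 0.27, adjusted p = 0.0827). It lies near Zfp970 among related zinc finger genes, where reads may be split between copies. A930016O22Rik, over an exon of Ckm, had 16.5, 6.31, 23.9 and 20.04 (0.73 ± 0.22, adjusted p = 0.0990), and its pileup of 89, 12, 162 and 110 reads passed (1.17 ± 0.26, adjusted p = 0.0295). Gm24195, in an intron of Arl10, also passed by pileup (46, 11, 98 and 72 reads, 1.04 ± 0.22, adjusted p = 0.0282).

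The other regions lower by pileup were those of Gm31520, Rab10os, Gm15133, A930006K02Rik and 1700028E10Rik, with log2 differences from -1.56 to -1.04. By fold enrichment, whose numerator is the pileup, none of these 5 passed, and all had RXRabfl/fl higher without overlap, as had 32.9% of all regions. Gm31520 had the largest, with pileups of 76 and 16 reads in RXRabfl/fl and 21 and 22 in LysMCre+RXRabfl/fl libraries (-1.56 ± 0.27, adjusted p = 0.0199). A930006K02Rik, 20259 bp from the start of the interferon receptor gene Ifnar1, had 229, 42, 111 and 68 reads (-1.04 ± 0.22, adjusted p = 0.0271). The Gm15133 region lay 490 bp from the start of the coding gene Trim12a and rested on low pileups of 30, 9, 13 and 14 reads.

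By mean log2 fold enrichment the first 8 promoters were Gm13421, 4833417C18Rik, 1700096K18Rik, Rab11fip4os1, Gm26611, AA465934, Bambi-ps1 and Dancr. Gm13421 (chr2:27539764-27540575) had 25.0 and 16.4 in RXRabfl/fl and 26.02 and 22.6 in LysMCre+RXRabfl/fl libraries (-0.11 ± 0.22, adjusted p = 0.796). Rab11fip4os1, in an intron of Rab11fip4, had 24.6, 13.2, 24.4 and 22.3 (0.00 ± 0.21, adjusted p = 0.999). No member of the 8 passed the threshold by either measure, which does not show that they were equal.

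Sequence differed with how widely a promoter was called. The 376 distinct promoters with an entry had a median GC content of 55.7%, against 62.0% for coding promoters with a region and 50.3% for non-coding genes without one. A promoter was counted as CpG-rich when its GC content was over 50% and its observed-to-expected CpG ratio over 0.6. This held for 42.3% of the 376, for 58.0% of those called in all 4 libraries, for 28.1% of those missing in RXRabfl/fl replicate 3 only and for 32.5% of those called in the LysMCre+RXRabfl/fl libraries only, against 73.6% of coding promoters with a region and 33.9% of all promoters in the table. Of the 11 snoRNA host promoters, 9 were CpG-rich.

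Motifs were searched on both strands, matches overlapping other motifs included. The GC box (GGGCGG) was found in 45.7% of the 376 promoters, 61.1% of those called in all 4 libraries and 36.0% of all promoters. The macrophage motif PU.1/ETS (GGAAGT) was found in 29.8%, against 23.9% of all promoters and 30.1% of coding promoters with a region. The E-box (CACGTG) was found in 13.3%, against 7.14% of all promoters, the CREB motif (TGACGT) in 12.0% against 7.57%, and the CCAAT motif in 36.4% against 37.3%. The GATA motif (AGATAA) was found in 7.98% against 11.2%, and the C/EBP motif (TTGCNNAA) in 10.1% against 10.9%. AP-1 (TGANTCA) was found in 7.98% against 7.84%, and the nuclear receptor motif (AGGTCA) in 13.3% against 16.3%. In coding promoters with a region the shares were 68.2% for the GC box, 10.4% for the E-box, 12.2% for CREB and 38.6% for CCAAT. They were 5.09% for GATA, 7.58% for C/EBP, 4.62% for AP-1 and 11.0% for the nuclear receptor motif. A TATA box (TATAAA, transcribed strand) was found in 4.26% against 8.32%, and in 3.74% of coding promoters with a region. Among the 11 snoRNA hosts, 4 had a TATA box. The pyrimidine run at the start, C followed by 5 more pyrimidines, was found in 3.46% against 1.71%, with 1 of the 11 snoRNA hosts, Snhg8. Perfect DR1 and DR5 repeats, elements known to bind RXR dimers, were found in none of the 376, and in 12 and 3 of all 31396 promoters. That says only that these letters are not in this window.

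**Figure D5:**
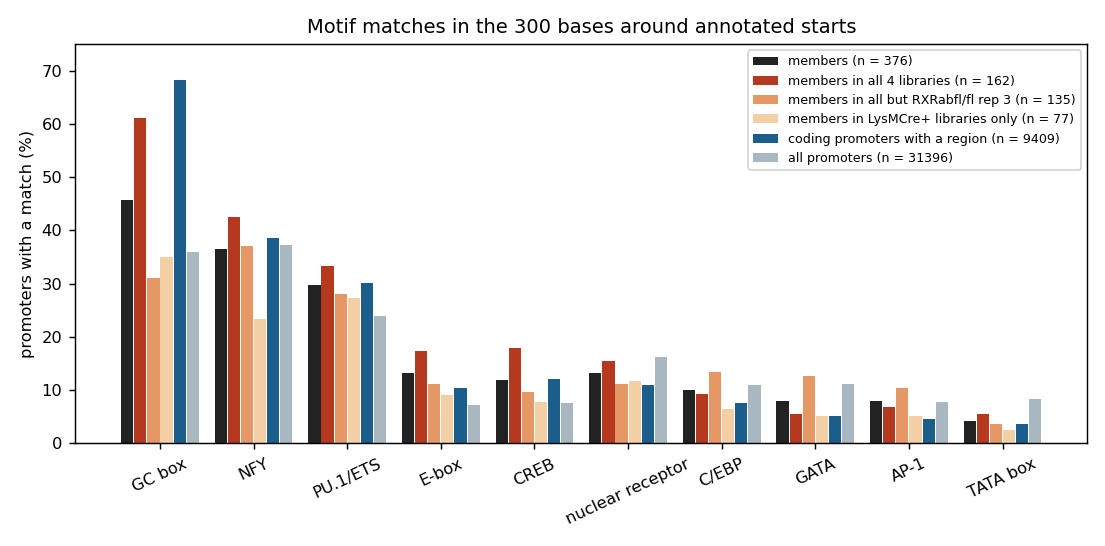
Share of promoters (y axis, %) with at least 1 match to each motif (x axis) in the 300 bases around the annotated start, for 6 sets of promoters shown by colour with their numbers in the legend. The GC box separates the sets most, from 31.1% of promoters missing in RXRabfl/fl replicate 3 only to 61.1% of those called in all 4 libraries and 68.2% of coding promoters.

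By direction, 33 of the 48 promoters with an entry where RXRabfl/fl was higher without overlap were CpG-rich (68.8%), against 12 of 28 where LysMCre+RXRabfl/fl was higher (42.9%). Of members called in all 4 libraries 58.0% were CpG-rich, and below the share of those members stands in brackets. PU.1/ETS matches stood in 45.8% and 28.6% (33.3% of members called in all 4 libraries), and CREB matches in 25.0% and 7.14% (17.9%). Shares for the GC box were 64.6% and 60.7% (61.1%), for GATA 4.17% and 3.57% (5.56%), and for AP-1 8.33% and 7.14% (6.79%). Those for the E-box were 20.8% and 14.3% (17.3%), and for C/EBP 8.33% and 0% (9.26%). For CCAAT (39.6% and 50.0%, of those members 42.6%), the nuclear receptor motif (16.7% and 17.9%, 15.4%) and the TATA box (6.25% and 7.14%, 5.56%) they ran the other way. These shares are descriptions of the promoters listed, since the sets came from the same fold enrichments.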

How the data were processed

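ATAC-seq was performed on 40000 sorted large peritoneal macrophages per library, 2 libraries per genotype. Per the study's methods, the authors trimmed adaptors (cutadapt), used Bowtie2 for alignment to mm10, kept properly paired, well-mapped, non-duplicate reads of the autosomes (mitochondrial reads and those of chromosomes X and Y were dropped), and called peaks in each library with MACS2 2.1.1 (shift 100, extension 200, q of 0.05). The sign of the shift and a correction for the transposase cut are not given in the sources used here, and both can move a summit. Blacklisted peaks were discarded, and libraries that did not cluster with their group were excluded by the authors.

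The deposited files hold, for each peak, a fold enrichment (the ratio of summit pileup to local background, each plus 1) and the −log10 p and −log10 q that the authors' peak caller gave. The deposited score was checked and not used. Read counts and totals per library were not used here, so depth per library is unknown and is described only by the number of peaks and the background. From each peak's fold enrichment and −log10 p, the whole-number pileup at the summit and its background were computed. Fold enrichment depends on depth, since a shallow library has low pileups.

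Regions, members and lists follow the rules given above. Members and lists were chosen with earlier results of these data known. Annotation was RefSeq (GRCm38.p6), curated transcripts only. For genotype differences, limma 3.58.1 (R 4.3.3, lmFit and eBayes) was fitted to log2 fold enrichment over the 15199 regions with a peak in every library, each library's median subtracted, with Benjamini-Hochberg adjusted p and a log2 threshold of 1; the study's own test used read counts, which were not analysed here. Errors are standard errors from this fit, with n = 2 libraries per genotype. An exact permutation test of 2 against 2 libraries cannot give a two-sided p below 0.333. On simulated data for this comparison, 199 of 200 planted log2 changes of 2 were recovered among 15199 regions, and 6 of 14999 unchanged regions were called. The planted size exceeded every member difference (-1.23 to 1.12), so recovery at those sizes was not tested. Genes were named when they passed the threshold, were among the 4 non-overlapping members with the largest difference in each direction, the 8 with the highest mean fold enrichment or the 4 strongest of those called in 1 genotype only, or stood on the fixed lists. Genes that passed the pileup test were added after their values were seen. The values of 1 region that this rule and the pileup test name are not reported here; it stays in the counts.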

Additional observations from a re-analysis of the deposited data

How the results depend on the processing

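No paired analysis was possible because the genotypes shared only replicate number 1. The number of regions was within 1.5 times of 604 under 11 of 12 alternatives and fell to 269 when each library was cut to the same number of peaks. The share called in all 4 libraries (39.7%) became 61.3% with equal peak numbers and 34.6% with peaks cut to 100 bp either side of the summit, and ranged from 40.9% to 76.5% when a library was left out (the highest without RXRabfl/fl replicate 3). The share called in the LysMCre+RXRabfl/fl libraries only (20.7%) became 8.18% with equal peak numbers, and without an RXRabfl/fl library it ranged from 20.7% to 59.1% (the highest without RXRabfl/fl replicate 1); leaving out a LysMCre+RXRabfl/fl library could give no value, since 2 libraries are needed. The median log2 difference (-0.088) was -0.067 by pileup, -0.014 with quantile normalization and 0.046 with centring on coding promoters, and ranged from -0.172 to -0.084 without a library. The number past the threshold (0) was 11 by pileup, 2 with centring on coding promoters, 2 with a variance trend and 34 of 479 with regions called in at least 2 libraries (32 of them with 1 RXRabfl/fl library), and from 0 to 15 without a library (15 without RXRabfl/fl replicate 3, 3.25% against 3.55% of all regions, and 11 without RXRabfl/fl replicate 1, 4.58% against 5.18%); it stayed at 0 with quantile normalization, with a q of at most 0.01 and by adjusted p alone. With a library left out, the lone sample of its genotype was assumed to vary like the others. The cause of these changes was not tested.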
